A study of Homo sapiens with 6 samples.

Results

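Solute carriers are the membrane proteins that move sugars, amino acids, ions, vitamins, nucleotide sugars and drugs down or against their gradients without spending ATP directly. Their level was followed in HK2 cells, an immortalised human line derived from the epithelium of the proximal tubule of the kidney. The genes described here are those with a current symbol that begins with SLC and a digit, or with SLCO, other than the mitochondrial SLC25A carriers. There were 31 of them among 14884 named genes. They fall into 20 carriers or carrier subunits of 13 families, the zinc finger protein SLC2A4RG, and 10 noncoding transcripts whose names come from a neighbouring carrier gene. The 20 carriers are mostly atypical ones that were numbered late, such as the major facilitator proteins once called MFSD. The classical carriers of the proximal tubule, such as the SLC22 organic ion carriers and the SLC5 glucose cotransporters, were not analysed here.

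The study set 3 arrays from cells with a lentiviral shRNA directed against PGC-1alpha beside 3 arrays from cells with a lentiviral shRNA directed against GFP, a protein that human cells lack. PGC-1alpha is a transcriptional coactivator that raises the expression of mitochondrial and oxidative genes. Both lentiviruses were built on pLKO.1. Puromycin removed uninfected cells of both groups, and the harvest fell on day 5 of transduction, 24 hours past the end of selection. Each group used 1 labelled shRNA in 1 cell line, so effects of lower PGC-1alpha and other effects of that shRNA cannot be told apart, and the gene of PGC-1alpha itself was not analysed here. The labels call the arrays biological replicates without saying whether each came from its own transduction. The p-values therefore reflect only the spread among these arrays, which may be technical. In bulk RNA fewer cells of a type and less RNA per cell cannot be told apart. The values are log2 RMA values, in which a difference of 1 is a doubling, and the array medians lay between 5.00 and 5.04. The precision comes from the number of arrays and their spread, which limma, the test used here, moves toward the spread of all genes.

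The proximal tubule recovers filtered glucose, amino acids, phosphate and bicarbonate through carriers on its apical side and passes them to the blood through carriers on its basolateral side. Carriers inside the cell serve other ends: they empty lysosomes of amino acids, sugars and vitamins, and they bring activated sugars and acetyl-CoA into the Golgi apparatus and the endoplasmic reticulum. Most of the carriers measured here belong to these intracellular groups or still lack an agreed substrate.

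The carriers moved in both directions and by modest amounts. Of the 31 genes, 4 were higher and 4 were lower with the shRNA against PGC-1alpha at an adjusted p under 0.05 in limma, or 25.8%, against 21.8% of all genes tested. The share that was higher, 12.9%, compares with 9.58% of all genes, and the share that was lower, also 12.9%, with 12.2%. The genes that rose were SLC60A2, SLC66A1, SLC38A12 and SLC71A2, all carriers. The genes that fell were the carriers SLC35F6 and SLC33A2 and the noncoding transcripts SLC2A1-DT and SLC9A3-OT1. The largest change in either direction was 0.69, for SLC60A2, or 1.61-fold. Among the 21 protein-coding genes 6 passed, or 28.6%, against 24.6% of all protein-coding genes, and among the 10 noncoding genes 2 passed, or 20%, against 12.7% of all long noncoding genes. These shares lie near their backgrounds, so the counts alone do not set the solute carriers apart from other genes. For 14 of the 31 genes, or 45.2%, the groups were fully separate, against 38.7% of all genes. Of these 7 were higher and 7 lower with shPGC-1alpha, where 17.2% of all genes were separate and higher and 21.5% separate and lower. Among the 25 genes with a group mean above 4.43, the 20th percentile of the named genes, 8 passed, or 32%, against 26.1% of all genes above that level. The median log2 difference was 0.05 over the 31 genes and -0.02 over all genes, and the median size of a difference, whatever its sign, was 0.21 against 0.14.

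**Figure D1:**
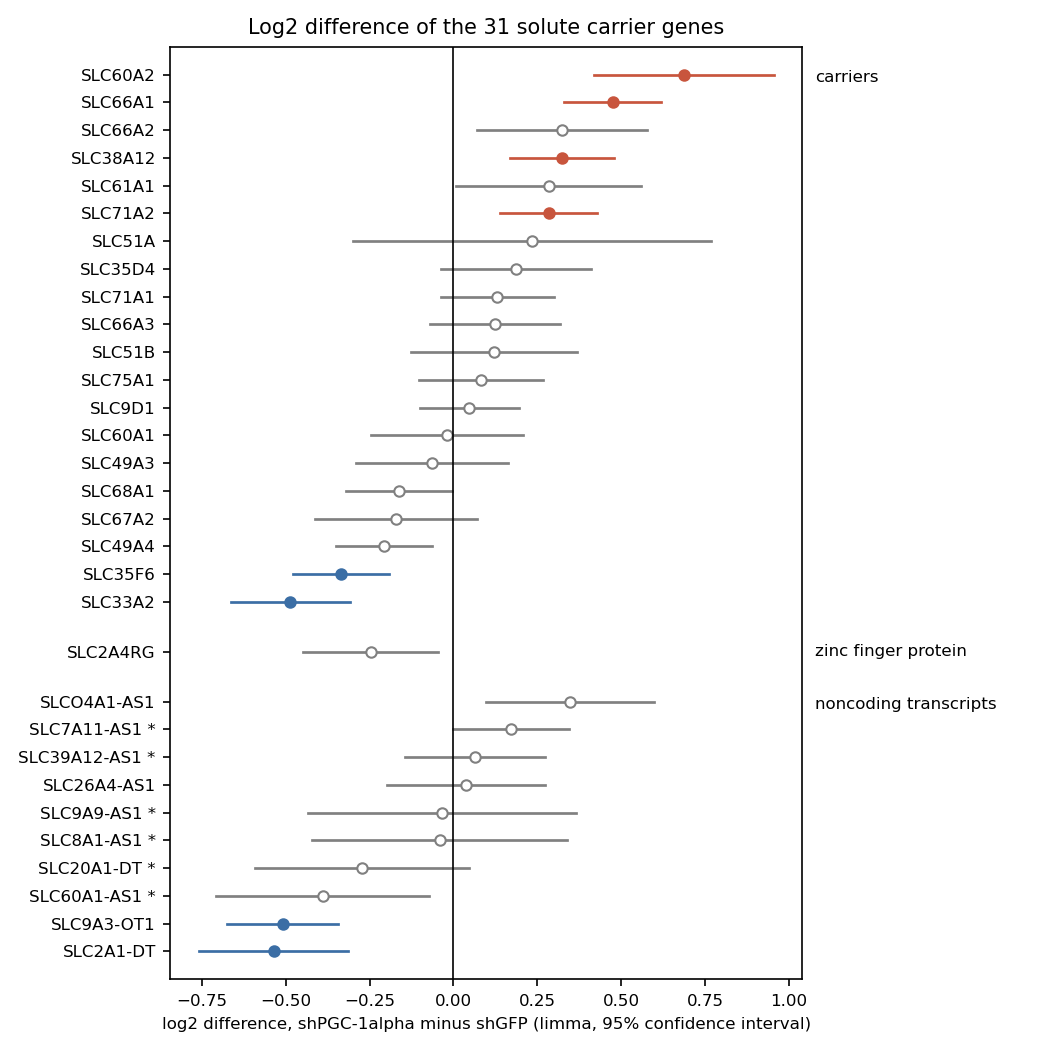
Log2 difference (shPGC-1alpha minus shGFP, horizontal axis) with its 95% confidence interval for each of the 31 genes, set out as carriers, the zinc finger protein and noncoding transcripts. Filled points passed an adjusted p of 0.05 in limma (red higher, blue lower), open grey points did not, and an asterisk marks a gene with both group means under 4.43. The 4 genes that rose lie between 0.28 and 0.69 and the 4 that fell between -0.54 and -0.33.

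Of the 4 measured carriers in the amino acid group 2 rose, where 9.58% of all genes rose, and the median difference was 0.32. The group was set by family number and not by a substrate shown for each carrier. All 4 differences were positive, as were 6983 of the 14884 differences over all genes, and with 4 genes and no test of the group these counts are a description. SLC66A1, also called PQLC2, is a lysosomal exporter of lysine and arginine. Its log2 value was 8.08, 8.04 and 8.07 in shGFP replicates 1, 2 and 3 and 8.51, 8.51 and 8.59 in the shPGC-1alpha replicates. The groups lay far apart, with an SD of 0.02 and 0.05 (n = 3 each). The log2 difference was 0.47 (SE 0.06, adjusted p 0.00183 in limma), or 1.39-fold, and it passed under each of the 14 alternatives tried. SLC38A12, listed until recently as TMEM104, belongs by number to the SLC38 family of amino acid carriers. It was at 8.599, 8.66 and 8.70 with shGFP and at 8.92, 8.99 and 9.03 with shPGC-1alpha. Every shPGC-1alpha array was above every shGFP array, and the difference was 0.32 (SE 0.07, adjusted p 0.0123 in limma), or 1.25-fold. The call was lost when all probe sets of the array, named or not, were tested together (adjusted p 0.0616 in limma).

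The relatives of SLC66A1 with the same PQ-loop fold, SLC66A2 and SLC66A3, did not pass. SLC66A2, a PQ-loop protein of the endosomal system, was at 7.03, 6.98 and 7.31 with shGFP and at 7.52, 7.29 and 7.48 with shPGC-1alpha, so that shGFP replicate 3 overlapped the other group. Its difference was 0.32 (95% confidence interval 0.07 to 0.58, adjusted p 0.0747 in limma), which is as large as that of SLC38A12 with a wider spread. Without shGFP replicate 3 the difference was 0.42 and passed (adjusted p 0.0314 in limma), and it also passed in 3 of the 8 other alternatives (lowest adjusted p 0.0212 in limma). SLC66A3 had a difference of 0.12 (interval -0.07 to 0.32) and overlapping groups. The family's median was 0.32 and ran from 0.26 to 0.42 as single arrays were left out.

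**Figure D2:**
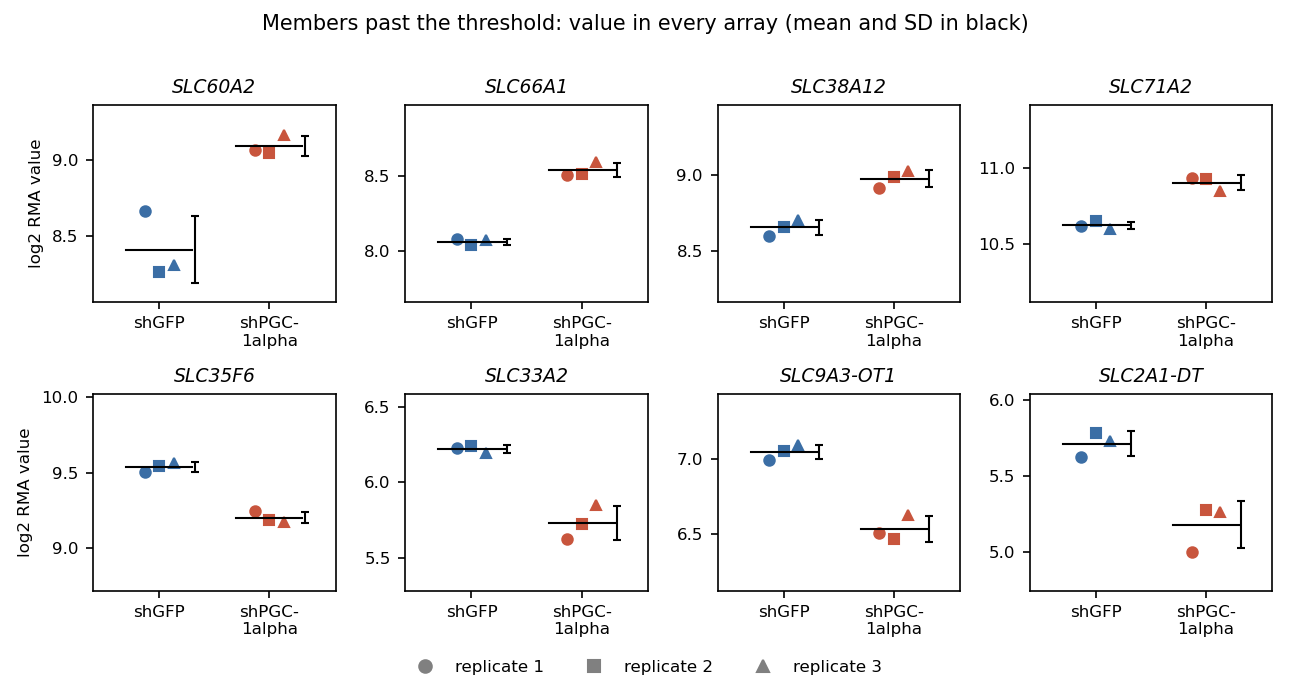
Log2 RMA value (vertical axis, the same span of 1.3 log2 units in each panel) in each array for the 8 genes past the threshold. Marker shapes give the replicate number, the black line is the group mean and the bar beside it the SD (n = 3). In every panel the arrays of the groups are separate, and shGFP replicate 1 of SLC60A2, at 8.66, lies above the other shGFP arrays, at 8.26 and 8.30.

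The SLC60 family holds the carrier with the largest increase. SLC60A2, also called MFSD4B or NaGLT1, is related to a sodium-dependent glucose carrier first described in rodent kidney tubules. It was at 8.66, 8.26 and 8.30 with shGFP and at 9.07, 9.05 and 9.17 with shPGC-1alpha. The shGFP arrays were spread, with replicate 1 well above the others, yet all 3 lay below the shPGC-1alpha arrays. The mean rose from 8.41 ± 0.22 (SD, n = 3) to 9.10 ± 0.07, a difference of 0.69 (SE 0.11, adjusted p 0.00526 in limma). Leaving out single arrays moved the difference between 0.61 and 0.81 without loss of the call. SLC60A1, its close relative MFSD4A, was at 5.30, 5.37 and 5.42 with shGFP and at 5.31, 5.53 and 5.19 with shPGC-1alpha. Its groups overlapped fully and its difference was -0.02 (interval -0.25 to 0.21), with a sign that turned when arrays were normalised again or when shGFP replicate 3 or shPGC-1alpha replicate 3 was left out.

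The major facilitator carriers of the SLC71 family, first found as transcripts abundant in the hippocampus, both had higher values with shPGC-1alpha. SLC71A2 was at 10.62, 10.65 and 10.60 with shGFP and at 10.94, 10.93 and 10.85 with shPGC-1alpha, without overlap. Its difference was 0.28 (SE 0.06, adjusted p 0.0164 in limma), or 1.22-fold. The call was lost in 4 of the 14 alternatives: without shGFP replicate 3, shPGC-1alpha replicate 1 or shPGC-1alpha replicate 2 the adjusted p in limma was 0.0612, 0.0541 and 0.0549, and it was 0.0790 over all probe sets. SLC71A1 went from 9.71, 9.86 and 9.81 to 9.88, 10.00 and 9.90, again without overlap, but its difference of 0.13 (interval -0.04 to 0.30, adjusted p 0.254 in limma) did not pass.

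Of the other carriers of major facilitator type SLC33A2, described below, fell, and the following did not pass. SLC61A1, or MFSD5, a carrier of molybdate, had a difference of 0.28 (interval 0.01 to 0.56, adjusted p 0.140 in limma), and its shGFP replicate 3, at 6.64, lay above shPGC-1alpha replicate 3, at 6.62. SLC75A1, also called MFSD10 or TETRAN and related to bacterial tetracycline exporters, had a difference of 0.08 (interval -0.10 to 0.27). SLC68A1, or MFSD13A, was lower in all 3 shPGC-1alpha arrays (7.30, 7.21 and 7.37, against 7.43, 7.47 and 7.46), with a difference of -0.16 (adjusted p 0.142 in limma). SLC67A2, or MFSD9, stood at 7.05, 7.04 and 7.02 with shGFP, and shPGC-1alpha replicate 1, at 7.09, departed from replicates 2 and 3, at 6.79 and 6.71. Its difference was -0.17 (adjusted p 0.302 in limma) with all arrays and -0.28 (adjusted p 0.0432 in limma) without shPGC-1alpha replicate 1.

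Of the 3 measured carriers in the group of activated sugars and acetyl-CoA 2 fell, where 12.2% of all genes fell, again a description of a few genes. This group, too, was set by family number and not by a substrate shown for each carrier. SLC33A2, also called MFSD3, is the relative of SLC33A1, which brings acetyl-CoA into the endoplasmic reticulum. It was at 6.22, 6.24 and 6.19 with shGFP and at 5.63, 5.72 and 5.85 with shPGC-1alpha, well apart. The mean fell from 6.22 ± 0.02 (SD, n = 3) to 5.73 ± 0.11, a difference of -0.49 (SE 0.08, adjusted p 0.00397 in limma), and the level was 1.40-fold lower. SLC35F6 belongs by number to the SLC35 family of nucleotide sugar carriers and is also listed as a binding partner of the mitochondrial adenine nucleotide carrier. It was at 9.50, 9.54 and 9.56 with shGFP and at 9.24, 9.19 and 9.18 with shPGC-1alpha. These arrays were the tightest of the decreases, with an SD of 0.03 and 0.04 (n = 3 each), and the difference was -0.33 (SE 0.06, adjusted p 0.00765 in limma). Both decreases passed under each of the 14 alternatives. The other SLC35 gene, SLC35D4, known before as TMEM241, had a difference of 0.19 (interval -0.04 to 0.41, adjusted p 0.226 in limma) and overlapping groups.

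The remaining carriers showed no change past the threshold. SLC49A4, or DIRC2, is a lysosomal membrane protein whose gene was found at a chromosome break in familial kidney cancer. Its arrays did not overlap, at 9.003, 9.06 and 9.02 with shGFP and 8.77, 8.83 and 8.86 with shPGC-1alpha, and its difference of -0.21 (SE 0.06) had an adjusted p of 0.0511 in limma, just outside the threshold. Over the alternatives the adjusted p in limma ran from 0.00702 to 0.178, and 3 of 14 called it lower. SLC49A3, or MFSD7, had a difference of -0.06 (interval -0.29 to 0.16), and was 0.0030 without shPGC-1alpha replicate 1. SLC51A and SLC51B encode the subunits of the organic solute transporter, which passes bile acids and steroids across the basolateral membrane. They were the only genes with a named probe set here, 2 of 52, of a list of carriers typical of the proximal tubule. Neither passed. SLC51A differed by 0.23 (interval -0.30 to 0.77) and was dim, with a mean of 4.39 with shGFP, under 4.43, and of 4.63 with shPGC-1alpha. Its shGFP replicate 1, at 3.82, lay far below replicates 2 and 3, at 4.63 and 4.72, and without it the difference was -0.05. SLC51B differed by 0.12 (interval -0.13 to 0.37). SLC9D1, known before as TMCO3 and grouped with the sodium and proton exchangers, differed by 0.05 (interval -0.10 to 0.20).

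Carriers of a family were then set against each other within each array, in 8 possible comparisons. A two-sided exact permutation test of 3 arrays against 3 cannot give a p below 0.1, so it could not pass 0.05 whatever the values, and the comparisons are given as a description. In 4 of them shGFP and shPGC-1alpha arrays were fully separate. Each of these 4 holds a gene that passed by itself, so the separation partly restates that gene's values. The share over other pairs of genes was not computed. The SLC60 comparison was the widest: SLC60A1 minus SLC60A2 changed by -0.71. SLC35D4 minus SLC35F6 changed by 0.52, SLC66A1 minus SLC66A3 by 0.35 and SLC71A1 minus SLC71A2 by -0.15. The other 4 comparisons overlapped, with changes between 0.11 for SLC51A minus SLC51B and 0.20 for SLC66A2 minus SLC66A3.

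**Figure D3:**
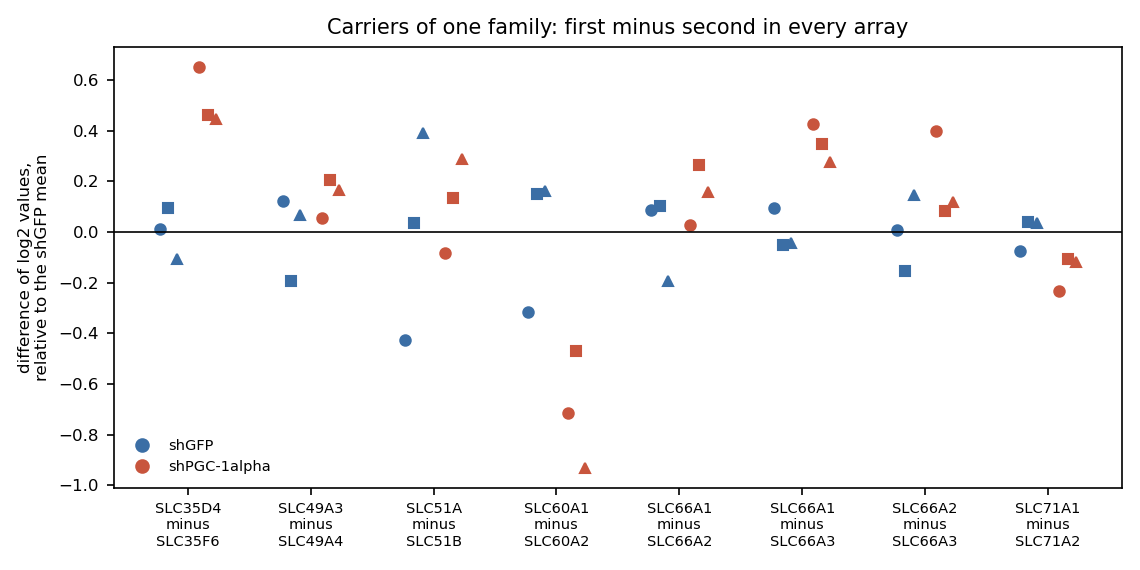
Difference of log2 values between both carriers of a comparison in each array, relative to its mean over the shGFP arrays (vertical axis), for the 8 comparisons within families. Blue points are shGFP and red points shPGC-1alpha arrays, with circles, squares and triangles for replicates 1, 2 and 3. The groups are separate for SLC35D4 minus SLC35F6, SLC60A1 minus SLC60A2, SLC66A1 minus SLC66A3 and SLC71A1 minus SLC71A2.

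SLC2A4RG carries a solute carrier symbol but encodes a zinc finger protein that regulates the gene of the insulin-responsive glucose carrier GLUT4. It was at 8.72, 8.65 and 8.66 with shGFP and at 8.36, 8.33 and 8.59 with shPGC-1alpha. The arrays did not overlap, but shPGC-1alpha replicate 3 lay close to the shGFP group, and the difference of -0.25 (SE 0.09, adjusted p 0.0845 in limma) did not pass. Without that array the difference was -0.33 and passed (adjusted p 0.0242 in limma), as it did with a mean-dependent robust variance (adjusted p 0.0179 in limma).

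Among the noncoding transcripts, those beside the genes of the glucose carrier GLUT1 and the sodium and proton exchanger NHE3 fell. SLC2A1-DT starts beside SLC2A1, the GLUT1 gene, and is transcribed away from it. It was at 5.62, 5.79 and 5.73 with shGFP and at 5.00, 5.27 and 5.26 with shPGC-1alpha, a clear separation. The mean fell from 5.71 ± 0.08 (SD, n = 3) to 5.18 ± 0.16, a difference of -0.54 (SE 0.09, adjusted p 0.00678 in limma), or a 1.45-fold lower level. SLC9A3-OT1 overlaps SLC9A3, the gene of the NHE3 exchanger that takes up sodium at the apical membrane. It was at 6.99, 7.05 and 7.09 with shGFP and at 6.51, 6.47 and 6.63 with shPGC-1alpha. Again no arrays overlapped, and the difference was -0.51 (SE 0.07, adjusted p 0.00245 in limma), or a 1.42-fold lower level. Both calls held under each of the 14 alternatives. SLC2A1 and SLC9A3 themselves were not analysed here, so nothing is known from these values of the carriers' own transcripts, and probes on overlapping transcripts may share signal.

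The other 8 noncoding transcripts did not pass. SLCO4A1-AS1 was at 4.38, 4.72 and 4.76 with shGFP and at 4.96, 4.94 and 5.01 with shPGC-1alpha, without overlap, and its difference was 0.35 (SE 0.11, adjusted p 0.0567 in limma). SLC60A1-AS1, antisense to SLC60A1, differed by -0.39 (adjusted p 0.0843 in limma) with shGFP replicate 3, at 3.22, under shPGC-1alpha replicate 1, at 3.27. Without shGFP replicate 3 it passed at -0.53 (adjusted p 0.0171 in limma). SLC26A4-AS1 differed by 0.04. The transcripts SLC20A1-DT, SLC39A12-AS1, SLC7A11-AS1, SLC8A1-AS1 and SLC9A9-AS1 differed by -0.27 to 0.17. These 5 and SLC60A1-AS1 were the 6 genes with both group means under 4.43, where array signal is hard to tell from background.

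The sequences just upstream of 3 carriers that rose and of SLC2A1-DT are shown. The first were picked because they rose and had upstream bases outside other genes and outside their own gene. The last is the stretch shared with the GLUT1 gene. Those of other genes, such as SLC71A2, which rose, and SLC9A3-OT1, which fell, are not shown. They were read from RefSeq (GRCh38.p14), run to the base before the gene's start, and were cut where another gene begins. Capitals mark matches, on either strand, to the GC box GGGCGG, the E-box CACGTG and the nuclear respiratory factor 1 site, taken as GCGC, any base, then TGCGC. Nuclear respiratory factor 1 is a textbook partner of PGC-1alpha.
SLC60A2, chr6:111259213-111259338, + strand: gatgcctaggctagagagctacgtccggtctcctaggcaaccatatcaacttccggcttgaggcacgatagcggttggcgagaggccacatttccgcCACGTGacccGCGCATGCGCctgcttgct
SLC66A1, chr1:19312147-19312325, + strand: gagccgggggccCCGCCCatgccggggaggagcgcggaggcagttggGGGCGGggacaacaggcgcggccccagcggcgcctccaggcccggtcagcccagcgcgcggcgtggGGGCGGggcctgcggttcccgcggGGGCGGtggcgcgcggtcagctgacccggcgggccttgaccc
SLC38A12, chr17:74776346-74776498, + strand: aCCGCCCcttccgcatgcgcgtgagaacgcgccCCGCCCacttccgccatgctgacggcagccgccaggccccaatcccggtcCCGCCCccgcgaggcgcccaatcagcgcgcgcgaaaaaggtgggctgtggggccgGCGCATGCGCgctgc
SLC2A1-DT, chr1:42958869-42959048, + strand: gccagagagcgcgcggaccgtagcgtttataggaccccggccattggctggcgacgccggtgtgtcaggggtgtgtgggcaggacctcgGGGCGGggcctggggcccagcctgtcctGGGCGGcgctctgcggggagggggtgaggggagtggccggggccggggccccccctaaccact

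The stretch of SLC60A2 is 126 bases long, has 60.3% G and C, and holds 1 E-box and 1 nuclear respiratory factor 1 match near the gene's start, with the divergent transcript SLC60A2-DT on its other side. The stretch of SLC66A1, 179 bases with 82.7% G and C beside AKR7A2, holds 4 GC boxes and no nuclear respiratory factor 1 match, which lies in the part cut off, and that of SLC38A12, 153 bases with 75.2% G and C beside NAT9, holds 3 GC boxes and 1 nuclear respiratory factor 1 match. The 180 bases between the starts of SLC2A1 and SLC2A1-DT hold 2 GC boxes. Counted over the 250 bases upstream of each start, without cuts, 22 of the 31 genes had a sequence, 6 of them past the threshold. The nuclear respiratory factor 1 site occurred in 7 of these 22 and in 7.90% of 10749 named genes, the E-box in 2 and in 7.93%, and the GC box in 18 and in 57.8%. The 7 were SLC60A2, SLC66A1 and SLC38A12, which rose, SLC9A3-OT1, which fell, and SLC49A4, SLC67A2 and SLC68A1, which did not pass and had negative differences. SLC71A2, which also rose, had a GC box and no match to the nuclear respiratory factor 1 site. The element of estrogen-related receptors, another set of partners of PGC-1alpha, written here as TNAAGGTCA, occurred in 0 of the 22 and in 0.595% of all. The motifs can overlap each other in sequences rich in G and C, and a match is not a measured binding site.

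Carriers with a solute carrier number only as a synonym were listed beside these genes after their values had been seen. There were 52, of which 9 rose and 3 fell, or 23.1% against 21.8% of all genes, with a median of 0.02. MFSD2A, numbered SLC59A1 and a carrier of lysophosphatidylcholine, went from 5.85, 6.21 and 5.95 to 7.44, 7.37 and 7.38. This was the largest increase of the list, at 1.40 (SE 0.10, adjusted p 0.000178 in limma), without overlap. NIPAL4 and NIPA2, relatives in a family of magnesium carriers numbered SLC57, rose by 1.19 and 0.38. The other 4 of that family did not pass, with NIPAL3 at 0.0012, NIPA1 at -0.03, NIPAL1 at -0.04 and NIPAL2 at -0.29. CNNM2, a magnesium transport protein numbered SLC70A2, rose by 0.25, while CNNM1, CNNM3 and CNNM4, at 0.27, -0.13 and -0.02, did not pass. SPNS1, the lysosomal lysophospholipid exporter, rose by 0.47, SPNS2, which exports sphingosine 1-phosphate, by 0.30 (SPNS3, at 0.01, did not pass), and MFSD1, a lysosomal dipeptide carrier, by 0.37. TMEM184B, numbered with the SLC51 family, rose by 0.56. Among mitochondrial sideroflexins the serine carrier SFXN1 rose by 0.33 and SFXN2 fell by 0.54, and SFXN3, SFXN4 and SFXN5, at 0.18, -0.13 and -0.04, did not pass. STRA6, the receptor that takes up retinol, fell by 0.67, and TUSC3 fell by 0.23. The adjusted p of these 12 genes in limma ran from 5.9e-05 for NIPAL4 to 0.0477 for TUSC3. With single arrays left out TUSC3 was lost each time, CNNM2 each time but without shGFP replicate 1, and SPNS2 each time but without shPGC-1alpha replicate 2. MFSD1 was lost without shGFP replicate 3, NIPA2 without shGFP replicate 2, and SFXN1 without shGFP replicate 2 or 3. Numbered with the SLC66, SLC35, SLC49 and SLC51 families but not past the threshold were MPDU1 (SLC66A5), at 0.21, TMEM144 (SLC35G7), at -0.22, FLVCR1 (SLC49A1), at -0.0010, TMEM184A (SLC51C1), at -0.10, and TMEM184C (SLC51C3), at -0.06. Of the 7 SLC25A symbols 0 passed in limma, and 1 of them, SLC25A21-AS1 at -0.22, had an unadjusted p under 0.05.

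Proteins that hold, fold or regulate carriers also moved both ways. Of 5 measured heavy chains and ancillary proteins, out of a list of 12, 1 rose and 2 fell, or 60% against 21.8% of all genes, with a median of -0.11. Neuroplastin (NPTN) rose by 0.54 and embigin (EMB) fell by 0.43, both chaperones of monocarboxylate carriers, while their relative basigin (BSG) did not pass, at -0.11. The fifth was SLC51B, given above. Collectrin (CLTRN), which brings a neutral amino acid carrier to the apical membrane, fell by 0.50, with both group means under 4.43. Of 14 measured scaffolds and regulators, out of 24, 3 rose and 4 fell, or 50% against 21.8% of all genes, with a median of 0.02. Neither list was tested as a group. PDZK1IP1, an activator of the sodium and glucose cotransporter of the proximal tubule, was at 9.17, 9.09 and 9.13 with shGFP and at 10.37, 10.34 and 10.24 with shPGC-1alpha. It rose by 1.19 (SE 0.07, adjusted p 7.4e-05 in limma), or 2.28-fold, with no overlap. TXNIP, an arrestin that removes glucose carriers from the cell surface, was at 10.10, 10.17 and 10.25 with shGFP and at 9.11, 9.004 and 8.93 with shPGC-1alpha. It fell by 1.16 (SE 0.08, adjusted p 0.000137 in limma), or 2.24-fold, again with no overlap. SGK1, a kinase that promotes sodium transport, rose by 0.44. PPARD, a nuclear receptor of fatty acid use, was 0.43 higher. STK39 and OXSR1, the kinases that activate sodium and chloride cotransporters, fell by 0.74 and 0.28, and ezrin (EZR), which ties carriers to the cytoskeleton of microvilli, fell by 0.28. The scaffold PDZK1 did not pass, at -0.40 (adjusted p 0.0812 in limma), and passed without shGFP replicate 3 (-0.51). The other 6 measured genes of this list, PPARA, WNK4, MTF1, NHERF4, WNK1 and RDX, lay between -0.18 and 0.23 and did not pass. The call of OXSR1 was lost with any single array left out, that of EMB without each array other than shGFP replicate 1, and EZR passed only without shGFP replicate 3 or shPGC-1alpha replicate 2.

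**Figure D4:**
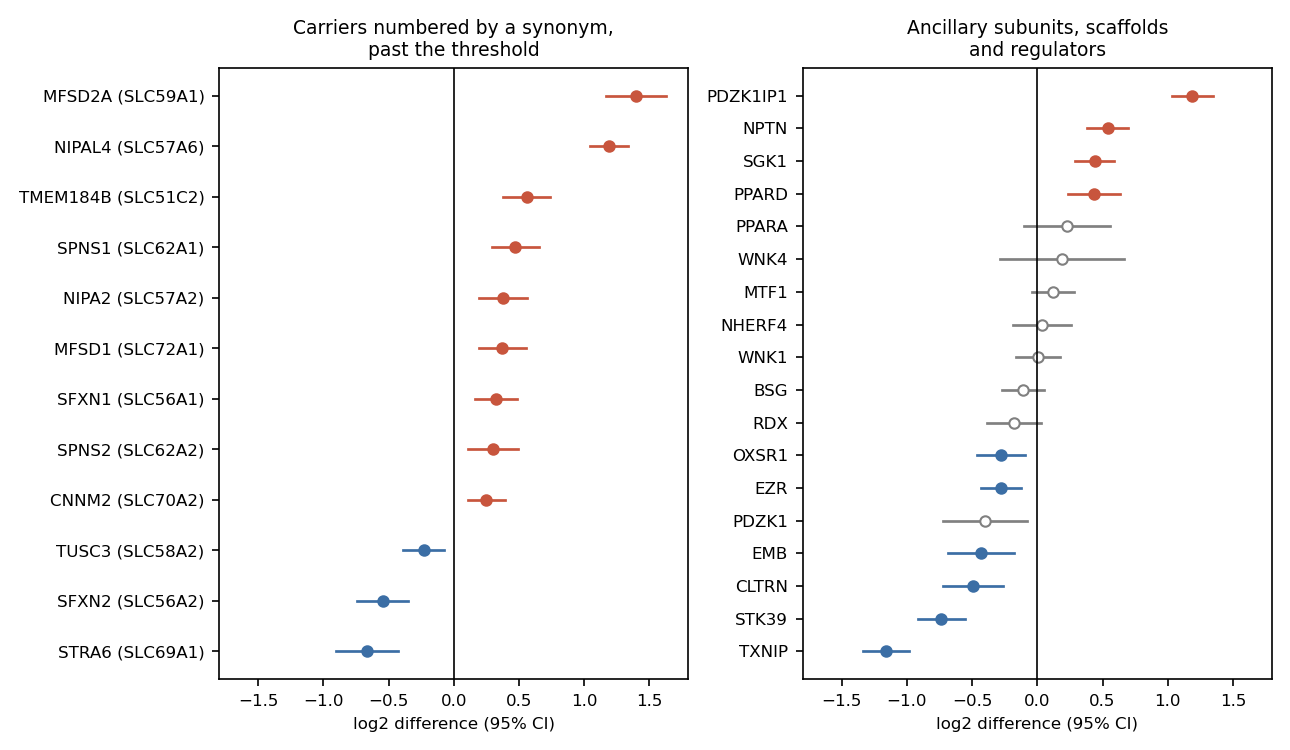
Log2 difference with its 95% confidence interval (horizontal axis) for the 12 carriers numbered by a synonym that passed the threshold, on the left, and for the measured ancillary proteins, scaffolds and regulators other than SLC51B, on the right. Filled points passed an adjusted p of 0.05 in limma (red higher, blue lower) and open points did not. MFSD2A, at 1.40, and PDZK1IP1, at 1.19, lie highest, and TXNIP, at -1.16, lies lowest.

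Markers of the proximal tubule were partly present in these cells. Of 15 such markers 8 were measured, of which 4 passed, or 50% against 21.8% of all genes, and the endocytic receptors LRP2 and CUBN had means of 3.90 to 4.001, under 4.43 in both groups, whereas the tubule transcription factor PAX8 was at 11.44 and 11.82. Within this list PAX8 and GATM, which makes the precursor of creatine, rose by 0.38 and 0.55, and the brush border peptidases MME and DPP4 fell by 0.61 and 0.27. Another such peptidase of the list, ANPEP, went the other way, from a mean of 4.56 to 4.72. Its groups were separate, but its difference of 0.16 did not pass. LRP2, CUBN and AQP1, at 0.06, -0.05 and -0.0027, did not pass either. Of 20 markers of other kidney, stromal and immune cells 8 were measured, and 2 passed, or 25%: CD68 and DCN rose by 0.34 and 0.83, the latter from a mean of 3.801 to 4.63. Of 8 epithelial and mesenchymal markers 6 were measured and 3 passed, or 50%. KRT19 fell by 1.42, EPCAM fell by 0.73 and KRT18 fell by 0.31, while KRT8, at -0.09, and the mesenchymal markers FN1, at 0.16, and VIM, at 0.09, did not pass. The part of these marker changes in the values of the carriers was not tested. With single arrays left out DPP4 passed only without shPGC-1alpha replicate 1.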

How the data were processed

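RNA of 6 HK2 arrays was compared, 3 with shPGC-1alpha and 3 with shGFP, as the sample titles give them. The authors deposited log2 values for 53617 probe sets, and the submitters' processing notes name RMA and Affymetrix Expression Console, with versions not given in the sources used here. RMA equalises the arrays' distributions, so a shift shared by most genes would be reduced. The values were used as deposited. A platform table named 16098 probe sets (37519 were unnamed here), and each gene was represented by its probe set with the highest mean; 0 of the 31 solute carrier genes had several. Symbols, synonyms and neighbours came from RefSeq (GRCh38.p14).

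The test was limma's moderated one (version 3.58.1, R 4.3.3) with lmFit and eBayes at default settings and no filter, adjusted by Benjamini-Hochberg over 14884 genes with a threshold of 0.05, and intervals are 95% limma intervals without adjustment. The fit was tested on simulated data with 200 changed genes. It recovered 43.3% of log2 changes of 0.5, 85.1% of changes of 1 and 100% of changes of 2, and 3.80% of its calls were false. In the real data 3243 genes passed, far more than were changed in the simulation. The adjusted threshold therefore falls at a different unadjusted p, and these shares need not hold for the comparison made here. The members and lists were chosen with earlier results of these data known. The rule for names was protein-coding members past the threshold with separate arrays and a group mean above 4.43, and every measured tubule carrier. It had further rules for large families and for lists. All 31 are named, and SLC2A1-DT and SLC9A3-OT1 lie outside the rule for members past the threshold. Other genes are those past the threshold in a list or were chosen after their values were seen. Lists of ATP-binding cassette carriers (23 genes), amino acid response (14), hypoxia (7), inflammation (13), other nephron segments (13) and near-identical copies (18) had 0 genes measured here. A gene is called measured if it had a named probe set, so the others may still lie among the unnamed probe sets. Alternatives were each array left out, the replicate block, a filter on dim genes, other probe set choices, scalings and variance models.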

Additional observations from a re-analysis of the deposited data

How the results depend on the processing

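Of 112 repeats of the 8 calls among the solute carriers over 14 alternatives, 107 kept their direction and side of the threshold, 5 lost the call and 0 reversed. Tests with all probe sets fitted and adjusted together gave the main change: 767 genes higher and 970 lower in place of 1426 and 1817. Of the solute carriers 2 were higher in place of 4. With single arrays left out 3 to 4 solute carriers were higher and 4 to 5 lower. Of the uncalled genes 7 turned sign: SLC60A1 was at 0.0153 after quantile normalisation was repeated, and with single arrays left out it ran from -0.11 to 0.0557, SLC26A4-AS1 from -0.0185 to 0.15, SLC39A12-AS1 from -0.0020 to 0.12, SLC49A3 from -0.14 to 0.0030, SLC51A (main difference 0.23) from -0.0486 to 0.40, SLC8A1-AS1 from -0.16 to 0.13 and SLC9A9-AS1 from -0.21 to 0.0750. For these the cause was not tested.

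With the replicate number as a block, 4 solute carriers were higher and 4 lower, and 1221 and 1552 of all genes. Deviations of arrays with the same number correlated at 0.117, 0.087 and 0.023. The labels do not say whether arrays with the same number were handled together, and these small values cannot settle it. Of the 6 arrays 5 correlated best with their own number, a hint from the data and not the design; shGFP replicate 3 correlated best with shPGC-1alpha replicate 2, at 0.057.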
